A study of Drosophila melanogaster with 24 samples.

Results

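The genes that carry proteins into and through the secretory route were compared in fat body RNA of Drosophila melanogaster. They were taken by symbol from a table of 13234 genes: the names that begin with Sec, Srp or Tango and a number, those that begin with Spase, and the subunits of the COPI coat, with the splicing factor Srp54 left out. The rule found 43 genes, of which 42 had an adjusted p-value. The remaining one, Tango8, had a mean normalised count of 0.112 and is not discussed further. Fat body serves insects as liver and fat tissue in 1 organ and secretes yolk, lipoproteins and immune proteins into the blood.

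The study covered 4 groups of 6 libraries, all from virgin w1118 females aged 25 days, with fat body of 25 flies pooled in each library. The groups were flies at 11 °C given ethanol, flies at 11 °C given S-methoprene, flies at 25 °C given S-methoprene, and flies at 25 °C given ethanol. S-methoprene is an analogue of juvenile hormone, the insect hormone that drives adult reproduction, and 10 µL of it or of its ethanol vehicle was volatilised every 2 days. Only flies with ovaries of the expected look were dissected, regressed at 11 °C with ethanol, as in diapause, and large in the other groups, so the groups differ in ovary state by selection.

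The authors deposited 1 comparison with no value per library. Neither the factor compared nor the direction of its fold changes is named, so genes are described as higher on the positive or on the negative side of the comparison, and no side was assigned to a temperature or a treatment. Levels per library, their spread and the depth behind them were not analysed here and are unknown. Normalised counts below are the authors' means over libraries, and they are divided by transcript length wherever levels of different genes are set side by side. A gene was called when its adjusted p in the deposited table was under 0.05, and a positive or negative call gives the side on which it was higher. Intervals are 95% normal intervals from the deposited standard error (SE), and they cover the spread between libraries as the authors' fit saw it.

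A secreted or membrane protein is recognised while still on the ribosome by the signal recognition particle, an RNA and protein complex that binds the signal peptide and docks at a receptor on the endoplasmic reticulum (ER). The Sec61 channel then takes the chain into the ER, where signal peptidase removes the signal peptide and oligosaccharyltransferase adds sugars. COPII-coated vesicles carry cargo from the ER to the Golgi, COPI-coated vesicles return escaped ER proteins, and the exocyst tethers vesicles at the plasma membrane. In Drosophila fat body this route carries yolk proteins, lipoproteins and collagen IV.

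Calls on the negative side were most frequent among genes of ER entry, a grouping made after the values were seen and not tested against the rest. All 10 genes of the signal recognition particle and the translocon had fold changes below 0 in the authors' deposited table, with 0 positive and 8 negative calls. Of the 19 members in the COPII coat, the COPI coat and the exocyst, that deposited table called 2 as positive and 5 as negative. Over all 42 tested members there were 3 positive and 19 negative calls, or 52.4% called on either side. Among all 11399 genes with an adjusted p, 49.0% were called on either side, with 27.0% positive and 22.0% negative. The share called on either side was thus near that of all genes, while 45.2% of members were called on the negative side. Members were mostly well expressed, and among genes with a mean of at least 100 57.4% were called on either side, 28.7% as positive and 28.7% as negative. Of the 39 members with such a mean, 3 were positive and 19 negative calls. Members had a median log2 fold change of -0.15, against 0.07 for all genes tested, in the deposited table. Most member changes were small: 1 of the 22 called members reached a 2-fold change. Of all 5590 called genes 2089 did so, and of the 3009 called with a mean of at least 100, 506. For 24 of the 42 the interval lay wholly within 0.5 of 0 on the log2 scale. The same held for 2462 of the 11399 genes and for 1865 of the 5238 with a mean of at least 100. When a change beyond 0.25 on the log2 scale was asked for, 0 positive and 9 negative members passed, against 1688 and 1233 of all 11399 genes. The 9 were Srp68, Srp54k, Srp9, Sec61gamma, Sec61beta, deltaCOP, epsilonCOP, Tango9 and Tango14.

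**Figure D1:**
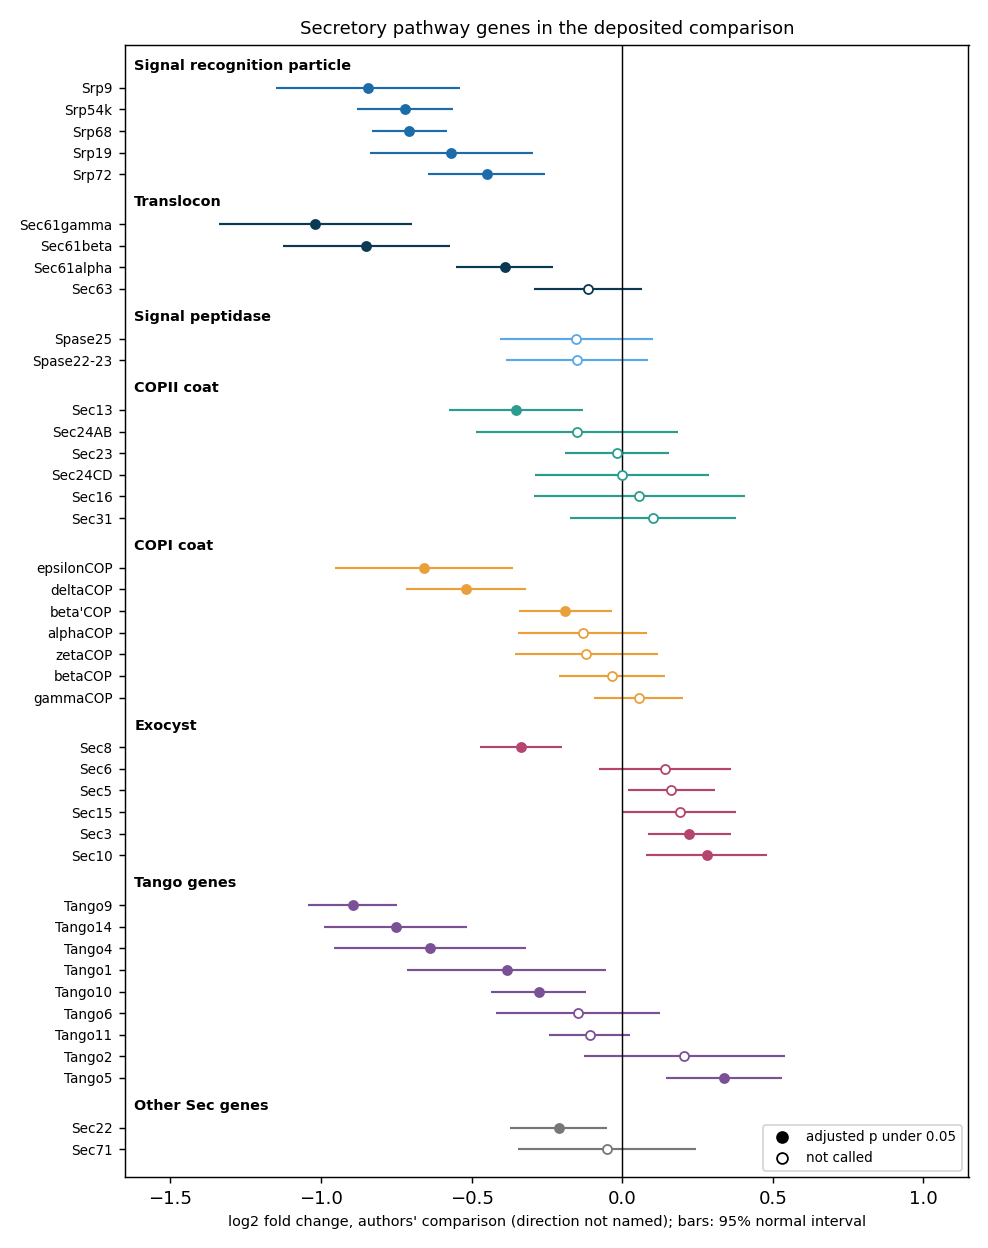
Log2 fold change in the authors' deposited comparison (x axis) for the secretory pathway genes, grouped by complex, with bars for the 95% interval; filled points have an adjusted p under 0.05. Srp14, whose interval runs from -1.45 to 0.85, and Tango8 are not drawn. The signal recognition particle and Sec61 genes lie at -0.39 or below, and 5 of 6 exocyst members lie above 0.

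Levels are given first. The 3 Sec61 subunits were the most abundant members per length. Sec61alpha, the channel-forming subunit, had a mean normalised count of 1278 per kilobase of transcript, Sec61beta 860 and Sec61gamma 662. Sec61alpha stood at the 96.4th percentile of all genes tested by this measure. The COPI subunits lay close together, between 230.1 per kilobase for gammaCOP and 512 for epsilonCOP. COPII genes were spread more widely, with Sec13 at 509 and Sec23 at 492 per kilobase, and Sec31 at 109, Sec24AB at 85.4 and Sec16 at 60.8. The exocyst members were the lowest complex, between 32.0 per kilobase for Sec6 and 85.4 for Sec5. Of the exocyst subunits outside the symbol rule, Exo84 was at 61.7 and Exo70 at 22.6 per kilobase. The median over all genes tested was 39.6 per kilobase. None of these orderings could be tested, because the spread of the levels over libraries is unknown.

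**Figure D2:**
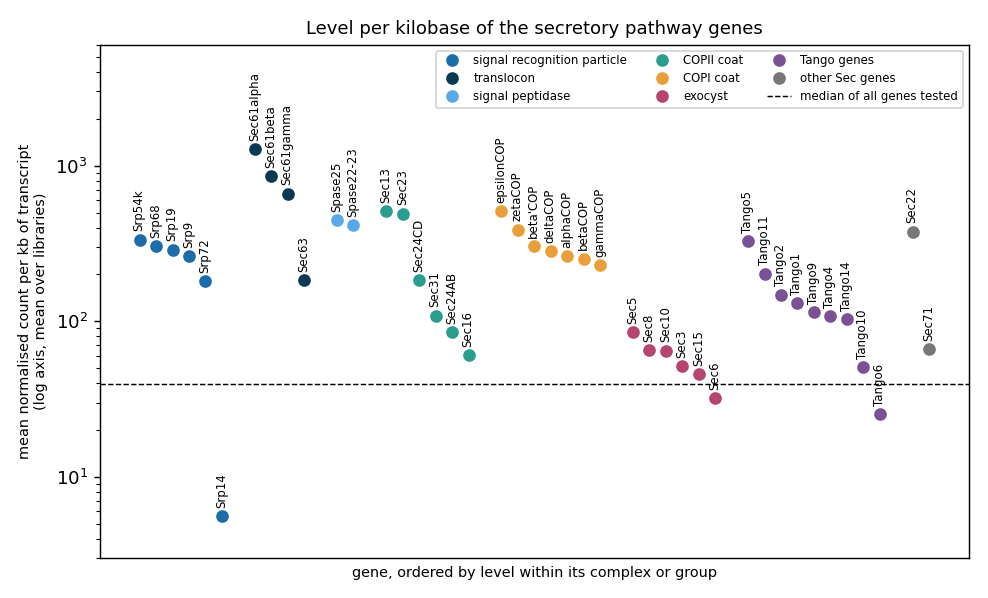
Mean normalised count per kilobase of the canonical transcript (y axis, log scale, mean over libraries) for each tested gene, ordered within its complex. The Sec61 subunits lie between 662 and 1278, the exocyst members between 32.0 and 85.4, and Srp14 stands alone at 5.59; the dashed line marks the median of all genes tested, 39.6.

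The signal recognition particle genes were called on the negative side as a nearly complete set. The 6 protein subunits gave 0 positive and 5 negative calls. That is 83.3% called on the negative side, against 22.0% of all genes. Srp68, which with Srp72 forms the large protein pair of the particle, stood at a log2 fold change of -0.71 in the authors' deposited table (SE 0.06, adjusted p = 7.33e-27). Srp54k, the GTPase that binds the signal peptide, stood at -0.72 (SE 0.08, adjusted p = 4.36e-17) in the same deposited table. These are 1.63-fold and 1.65-fold differences, and both intervals stay below -0.56. Srp9, part of the domain that slows elongation, was at -0.84 (SE 0.16, adjusted p = 5.23e-07) in the deposited table. Srp72 stood at -0.45 (SE 0.10, adjusted p = 3.07e-05) and Srp19, an assembly subunit, at -0.57 (SE 0.14, adjusted p = 0.000168) in the deposited table.

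Srp14, the partner of Srp9 in the elongation-arrest domain, was the exception. Its mean normalised count in the deposited table was 2.59, against 216 for Srp9. Per kilobase the level of Srp9 was 47.0 times that of Srp14. The log2 fold change of Srp14 was -0.30 (SE 0.59, adjusted p = 0.697) in the deposited table, and its interval from -1.45 to 0.85 holds no change as well as the fold changes of the other subunits. In the Ensembl annotation 17.7% of the bases of its 464-base canonical transcript overlap the gene CG34008 on the opposite strand, and the strand setting of the authors' counting is unknown. In build dm6 coordinates Srp14 (FBgn0038808) lies on 3R from 20580115 to 20580764, and Srp72 (FBgn0038810) on the same arm from 20588711 to 20591040. Srp68 (FBgn0035947) lies on 3L from 8975046 to 8977401 and Srp54k (FBgn0010747) on 3L from 5152678 to 5154777. All of these are protein-coding genes.

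Within the translocon the 3 Sec61 subunits were called and Sec63 was not, or 75.0% called, against 49.0% of all genes. Sec61gamma, a small tail-anchored subunit that clamps the channel, had the lowest fold change of any tested member, -1.02 (SE 0.16, adjusted p = 4.91e-09) in the authors' deposited table, a 2.03-fold difference. Sec61beta, the other small subunit, was at -0.85 (SE 0.14, adjusted p = 1.68e-08) in the deposited table. The channel subunit Sec61alpha stood at -0.39 (SE 0.08, adjusted p = 1.33e-05) in that deposited table, and its interval from -0.55 to -0.23 does not meet those of Sec61beta, -1.13 to -0.57, or Sec61gamma, -1.34 to -0.70. The difference between subunits was not tested, since the deposited table gives no covariance between genes. Sec63, a J-domain protein that recruits the ER chaperone BiP to the channel, was at -0.11 (SE 0.09, adjusted p = 0.303) in the deposited table, with an interval from -0.29 to 0.06. An antisense RNA, asRNA:CR45835, covers 60.7% of the Sec63 transcript, so without a stated strand setting their reads cannot be told apart. In dm6 coordinates Sec61gamma (FBgn0031049) lies on X from 19643327 to 19644518 and Sec61alpha (FBgn0086357) on 2L from 6477182 to 6480575.

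Signal peptidase genes were not called. The members Spase22-23 and Spase25, which hold accessory roles in the complex, were at -0.15 (SE 0.12, adjusted p = 0.303) and -0.15 (SE 0.13, adjusted p = 0.333) in the authors' deposited table. Their intervals, -0.39 to 0.09 and -0.41 to 0.10, lie within 0.5 of 0 on the log2 scale. In the annotation other genes overlap 26.0% of the Spase22-23 transcript on the opposite strand and 4.6% on the same strand, so its reads cannot be assigned with certainty. The catalytic subunit gene twr, older name Spase18-21, is outside the symbol rule and was looked up after the values were seen. It stood at -0.01 (SE 0.16, adjusted p = 0.968) in the deposited table. Trp1, the fly gene with the older name sec62, which works with Sec63 at the channel, was looked up in the same way and was at 0.11 (SE 0.13, adjusted p = 0.506) in the deposited table.

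Of the 6 COPII genes, 1 was called, on the negative side, a share of 16.7%, against 49.0% called of all genes. Sec13, an outer-coat subunit that also belongs to the nuclear pore, was at -0.35 (SE 0.11, adjusted p = 0.00551) in the authors' deposited table. Its outer-coat partner Sec31 stood at 0.10 (SE 0.14, adjusted p = 0.567) in that table, the highest of the COPII set, with an interval from -0.17 to 0.38. The inner-coat gene Sec23, which activates the GTPase Sar1, was at -0.02 with an interval from -0.19 to 0.16 in the deposited table. The cargo-binding paralogues Sec24AB and Sec24CD had log2 fold changes of -0.15 (interval -0.48 to 0.19) and -0.0013 (interval -0.29 to 0.29) in the deposited table. Sec16, the scaffold of ER exit sites, was at 0.06 (interval -0.29 to 0.41) in the deposited table. The 5 uncalled COPII genes all had intervals within 0.5 of 0 on the log2 scale, which bounds any change at that size and does not show that there was none.

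The COPI coat was called in part. Its 7 subunits gave 0 positive and 3 negative calls, a share of 42.9% called, against 49.0% of all genes. The epsilonCOP gene, for a small outer-layer subunit, stood at -0.66 (SE 0.15, adjusted p = 6.27e-05), and deltaCOP, of the adaptor-like layer, at -0.52 (SE 0.10, adjusted p = 1.95e-06), in the authors' deposited table. The outer-layer subunit beta'COP was at -0.19 (SE 0.08, adjusted p = 0.0364) in that deposited table, a call that ended when fold changes were centred on the median of well-measured genes (adjusted p = 0.0539). The remaining 4 ranged between the outer-layer alphaCOP at -0.13 (interval -0.35 to 0.08) and the adaptor-layer gammaCOP at 0.06 (interval -0.09 to 0.20) in the deposited table, with zetaCOP at -0.12 (interval -0.36 to 0.12) and betaCOP at -0.03 (interval -0.21 to 0.14). Subunits of the same layer were thus called and not called.

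Of the 6 exocyst members 5 stood above 0, as did 6211 of all 11399 genes tested. Positive calls made up 33.3% of the members, against 27.0% of all genes, and negative calls 16.7%, against 22.0%. Sec10 was called at 0.28 (SE 0.10, adjusted p = 0.0153) and Sec3, which marks the membrane site of docking, at 0.22 (SE 0.07, adjusted p = 0.00449), in the authors' deposited table. On the negative side Sec8 was called at -0.34 (SE 0.07, adjusted p = 7.92e-06) in the same deposited table. The other exocyst members were not called but lay above 0 in the deposited table, Sec5 at 0.16 (interval 0.02 to 0.31, adjusted p = 0.0552), Sec15, a Rab11 effector, at 0.19 (interval 0.0037 to 0.38, adjusted p = 0.0849) and Sec6 at 0.14 (interval -0.08 to 0.36, adjusted p = 0.295). All 6 member changes were small, with every interval within 0.5 of 0. The exocyst subunits outside the symbol rule were not called. Exo84 was at -0.11 (interval -0.31 to 0.08) and Exo70 at 0.12 (interval -0.16 to 0.40) in the deposited table. Sec5 passed when only genes with a mean of at least 10 were adjusted together (adjusted p = 0.0490), and no exocyst call on either side remained when a change beyond 0.25 was asked for (0 positive and 0 negative, Sec8 adjusted p = 0.470).

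The Tango genes share a name and no single complex, since they were found together in a knockdown screen in Drosophila cells for transport and Golgi organisation. The 9 tested gave 1 positive and 5 negative calls, or 66.7% called, against 49.0% of all genes. Negative calls made up 55.6%, against 22.0% of all genes. Tango9 had the smallest adjusted p of all members, at -0.89 on the log2 scale (SE 0.08, adjusted p = 4.45e-30) in the authors' deposited table. In the annotation 47.4% of its transcript is covered by GC1 and GC2 on the opposite strand, so its reads cannot be assigned with certainty. Tango14 stood at -0.75 (SE 0.12, adjusted p = 6.68e-09) in the deposited table, and 54.6% of its transcript is covered by the antisense RNA asRNA:CR43767. Tango4, a WD40 protein related to a spliceosome component, was at -0.64 (SE 0.16, adjusted p = 0.000330), and Tango10, a BTB-domain protein, at -0.28 (SE 0.08, adjusted p = 0.00190), in that deposited table.

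Tango1, the ER exit site protein that loads collagen and other bulky cargo, was close to the threshold. Its log2 fold change was -0.38 (SE 0.17, adjusted p = 0.0472) in the deposited table, with a mean of 614 normalised counts. The call ended when every gene with a p-value was adjusted together (adjusted p = 0.0547) and when fold changes were centred (adjusted p = 0.0565). Tango5, the fly VMP1 gene of ER contact sites and autophagy, was the called Tango gene on the positive side and the highest of all members, at 0.34 (SE 0.10, adjusted p = 0.00181) in the deposited table. Tango11, a mitochondrial and peroxisomal fission factor, was at -0.11 (interval -0.24 to 0.03), Tango2 at 0.21 (interval -0.13 to 0.54) and Tango6 at -0.15 (interval -0.42 to 0.12) in the deposited table, and none of these was called. Without the Tango genes, the other 33 members gave 2 positive and 14 negative calls, or 48.5% called, near the 49.0% of all genes.

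Outside these groups stood Sec22 and Sec71. Sec22, a SNARE of ER and Golgi vesicles, was called at -0.21 (SE 0.08, adjusted p = 0.0240) in the authors' deposited table. Sec71, an exchange factor for Arf GTPases at the trans-Golgi, was not called at -0.05 (interval -0.35 to 0.24, adjusted p = 0.802) in that deposited table.

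Fold changes of members moved with transcript length, as they did over genes of higher mean. Across the 42 members the Spearman correlation of canonical transcript length and log2 fold change was 0.45, against 0.36 over the 6592 genes of higher mean (at least the median of all genes), and genes share libraries and are not independent. With the level per kilobase the correlation across the members was -0.40. The 14 shortest members, of 464 to 1749 bases, had a median log2 fold change of -0.43 with 0 positive and 8 negative calls. The 14 longest, of 3066 to 7635 bases, had a median of -0.09 with 2 positive and 5 negative calls. Sec61beta and Sec61gamma have transcripts of 792 bases each, and Srp9 one of 821 bases. With the running median of genes of like length taken off, Sec61gamma was at -0.67, Sec61beta at -0.50, Srp68 at -0.66 and Srp54k at -0.67, and all 4 were still called. Sec61alpha, then at -0.34, also kept its call. Srp19 was then at -0.20 and no longer called (adjusted p = 0.244), while alphaCOP, at -0.31, became called (adjusted p = 0.0123), as did Sec24AB at -0.42 (adjusted p = 0.0337) and Sec71 at -0.35 (adjusted p = 0.0461). The calls of Sec22 and Sec3 also ended with it (adjusted p = 0.311 and 0.114). In all, this correction left 2 positive and 20 negative calls among the members. The median of the signal recognition particle genes was then -0.46, against -0.64 before it.

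**Figure D3:**
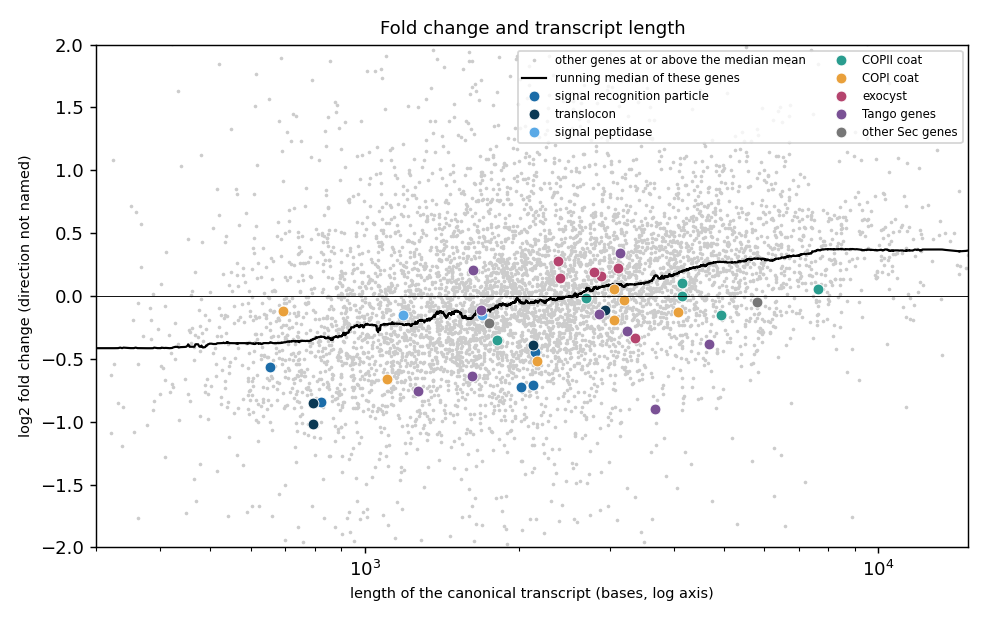
Log2 fold change in the authors' deposited comparison (y axis, shown from -2 to 2) against length of the canonical transcript in bases (x axis, log scale); grey points are genes whose mean is at least the median and the black line is their running median. The Srp and Sec61 genes lie below the line, except Srp14, which is not drawn, and the exocyst members other than Sec8 lie above it.

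Other genes of the route were listed by complex. Of 78 such genes, all tested, there were 8 positive and 31 negative calls, so that 39 of the 78 were called on either side, with 10.3% of the 78 positive and 39.7% negative. The share called on either side was near the 49.0% of all genes, of which 27.0% were positive and 22.0% negative. The median log2 fold change of the 78 was -0.12. The SRP receptor, TRAP and TRAM genes that were matched by name were all called. Both SRP receptor genes were called on the negative side, SrpRbeta at -0.52 (SE 0.10) and Gtp-bp, which RefSeq lists as SrpRalpha, at -0.25 (SE 0.11, adjusted p = 0.0427), in the authors' deposited table. The 4 matched genes of the translocon-associated TRAP complex and TRAM were also called on the negative side. Their smallest adjusted p were those of Tapdelta at -1.17 (SE 0.12) and SsRbeta at -0.75 (SE 0.09) in the deposited table. TRAPalpha was listed and found no match.

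Oligosaccharyltransferase genes were called on both sides. The 7 listed gave 3 positive calls and 1 negative call, or 57.1% called, against 49.0% of all genes. Positive calls made up 42.9% of the list, against 27.0% of all genes, and negative calls 14.3%, against 22.0%. Stt3B, a catalytic subunit, stood at 0.42 (SE 0.09) and Ostgamma at 0.32 (SE 0.08) in the authors' deposited table. Stt3A, the other catalytic paralogue, which in mammals works at the translocon, was the called gene on the negative side, at -0.37 (SE 0.14, adjusted p = 0.0184) in the deposited table, and was picked out after its value was seen.

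The 6 p24 cargo receptor genes gave 0 positive and 4 negative calls, among them eca at -0.53 (SE 0.10) and p24-1 at -0.37 (SE 0.07) in the authors' deposited table. Negative calls made up 66.7% of these 6, against 22.0% of all genes. A cargo lectin, ergic53, was called at -0.42 (SE 0.10), while Sar1, the GTPase that starts COPII assembly, was at -0.11 (interval -0.27 to 0.05), in the deposited table. Of 10 ER and Golgi SNARE genes and their regulators, 4 were called, all on the negative side, led by Slh at -0.50 (SE 0.08) and Vti1a at -0.48 (SE 0.13) in the deposited table. The share of the 10 called on either side was below the 49.0% of all genes. Their negative share was above the 22.0% of all genes. The 22 Golgi Arf, Rab and tether genes gave 3 positive and 8 negative calls, with ArfGAP1 at -0.80 (SE 0.08) and the tether subunit Cog7 at 0.83 (SE 0.13) in the deposited table. The share of the 22 called on either side was near the 49.0% of all genes. Positive calls made up 13.6% and negative calls 36.4%, against 27.0% and 22.0% of all genes. The TRAPP tether genes gave 1 positive and 2 negative calls of 11, or 27.3% called, against 49.0% of all genes. Their smallest adjusted p were those of gry at 0.28 (SE 0.07) and CG4953 at -0.38 (SE 0.11) in the deposited table. Exocytosis genes, Exo84 and Exo70 included, gave 1 positive and 3 negative calls of 9, or 44.4% called, against 49.0% of all genes. Among the called exocytosis genes were Snap24 at -0.74 (SE 0.08) and Rab10 at -0.43 (SE 0.06) in the deposited table.

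Among 4 transcription factor genes tied to this route or to ER stress, 2 were called, both on the negative side. The share called on either side was near the 49.0% of all genes. The deposited table gave -0.87 (SE 0.10) for crc, the fly ATF4 gene, and -0.36 (SE 0.08) for Xbp1. CrebA, which switches on secretory pathway genes in Drosophila embryos, was not called at 0.01 (interval -0.39 to 0.41), nor was Atf6 at 0.07 (interval -0.07 to 0.22), in the authors' deposited table.

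**Figure D4:**
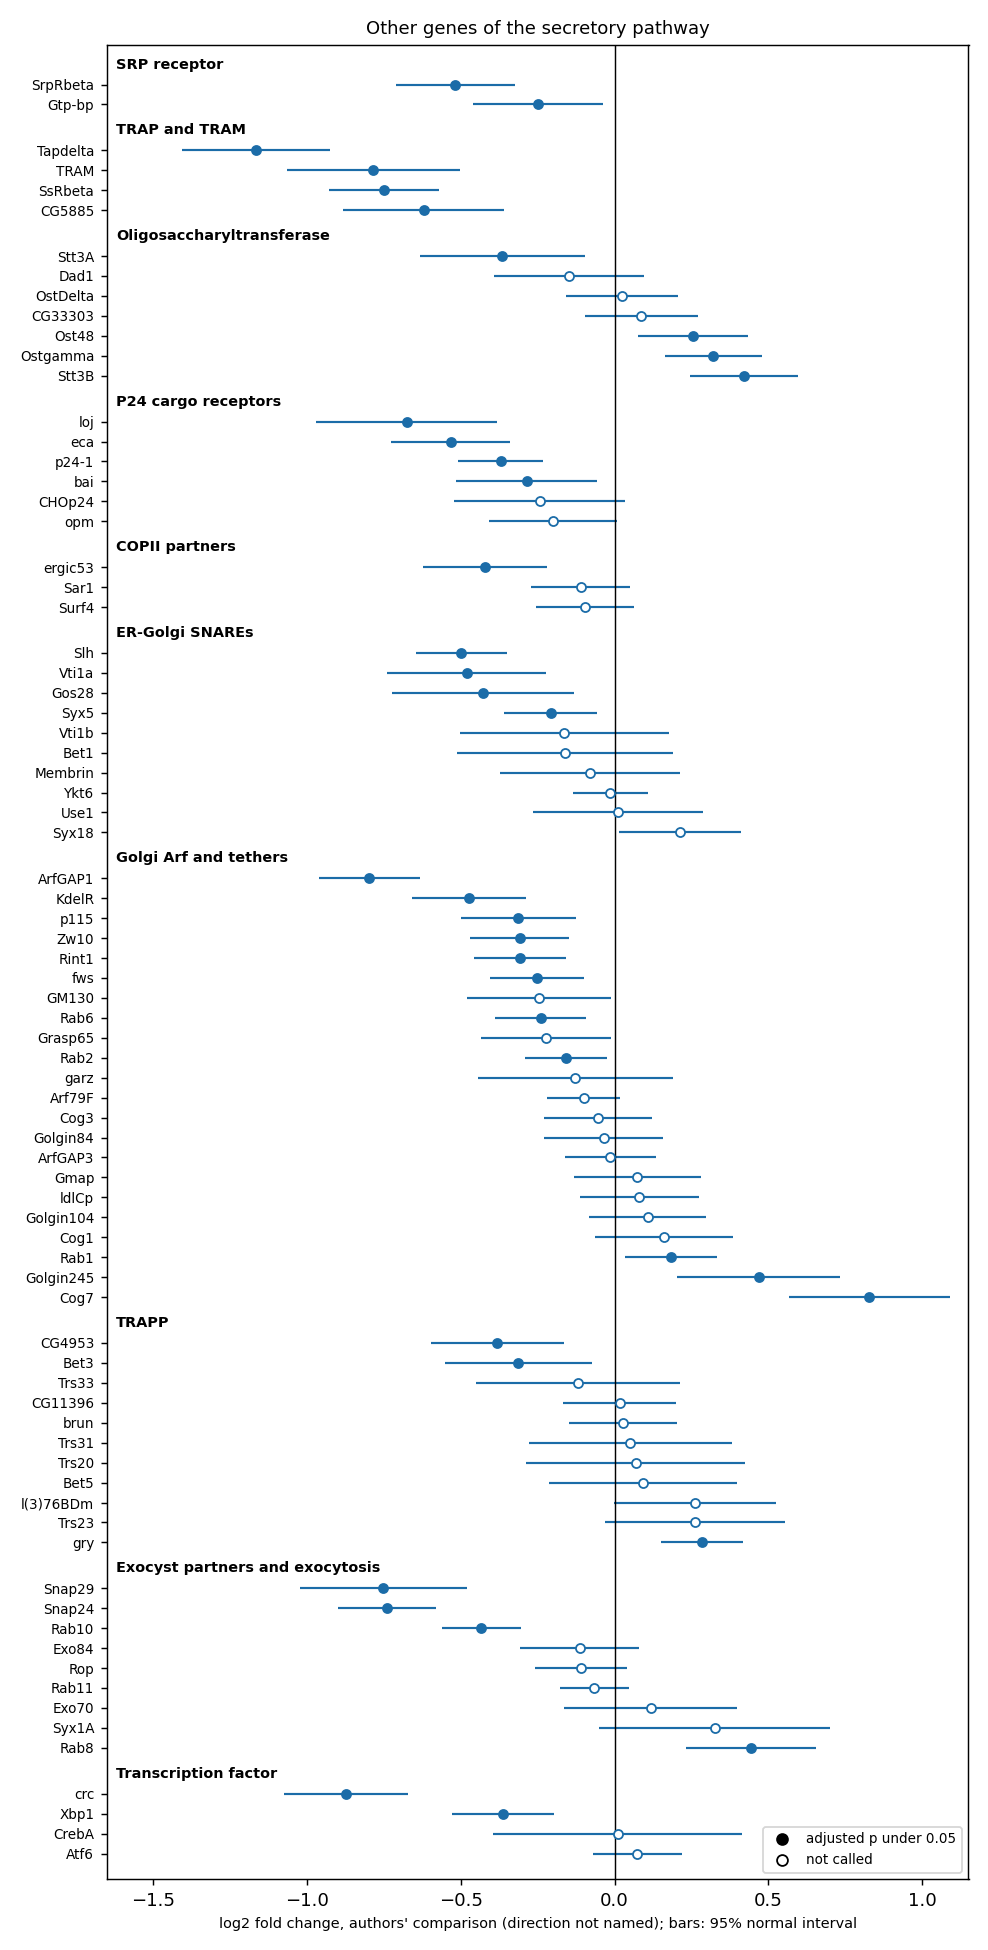
Log2 fold change in the authors' deposited comparison (x axis) for 78 other genes of the secretory route, grouped by complex, with bars for the 95% interval; filled points have an adjusted p under 0.05. The SRP receptor, TRAP and TRAM genes all lie at -0.25 or below, and 3 of 7 oligosaccharyltransferase genes are called above 0.

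Markers of other cell types were called at shares near the background, 55.6% to 70.0% of a list against 49.0% of all genes and 57.4% of those with a mean of at least 100, but several lists were called on 1 side alone. Their part in the results above was not tested. In the deposited table muscle markers gave 8 positive and 0 negative calls of 14, neuron markers 6 and 0 of 9, and hemocyte markers 5 and 0 of 9. Germline markers gave 0 and 6 of 10, and follicle cell and eggshell markers 0 and 4 of 7 tested. Cp38 and Cp36, also on that last list, had no adjusted p and lay above 0, at 2.81 (SE 2.34) and 2.36 (SE 1.75). Gut markers gave 3 and 4 of 10 and oenocyte markers 1 and 3 of 7. Summed means over libraries were 196142 normalised counts for 15 fat body markers, 169175 for the oenocyte list, 61884 for the gut list and at most 7311 for each of the other lists. The fat body list itself gave 6 and 5 calls of 15, with mdy at 1.10 and bmm at 0.86, and Yp1 at -3.05, Yp2 at -2.94, Yp3 at -2.10 and apolpp at -0.88, on the log2 scale in the deposited table. Of these markers, the yolk and lipoprotein genes were abundant, while the larval products Lsp2 (mean 8.37), Fbp1 (3.38) and Fbp2 (4.20) were low in the deposited table. In such pooled tissue, fewer cells of a type and less RNA per cell cannot be told apart.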

How the data were processed

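Poly-A RNA was sequenced from 24 fat body libraries. The submitters' processing notes list build dm6 and the tools DESeq2, Bowtie2, cutadapt, Trim Galore, FastQC, Picard and SAMtools, with no role or order. Tool versions, counting method, strandedness and gene models are not given in the sources used. The deposited table holds, per the file headers, a mean normalised count over libraries (unit: signal), a log2 fold change with its SE, a test statistic (a score in the deposited table), and p-values before and after adjustment for each gene. Checked on the values, the statistic is the fold change over its SE, p-values are two-sided and normal, and the adjustment is Benjamini-Hochberg over 11399 genes. The depth of single libraries is unknown, and nothing could be refitted. Each library is a pool of flies, and the labels do not say whether pools came from separate rearings, so the p-values measure only the spread between these libraries.

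The design allowed for counts per library, and its case for a table of comparisons was used. Members and gene lists were chosen with earlier results of these data known. Some listed names found no match and were left out, among them TRAPalpha, Cog4, Cog6 and Cog8. Named genes follow a written rule: every member by complex, with an interval for those not called, and the 2 partner genes of smallest adjusted p in each list. The partner genes Stt3A, Exo84, Exo70, CrebA and Atf6 were named outside this rule. Symbols were matched to the Ensembl release 115 annotation (dm6 coordinates) and RefSeq synonyms, which gave a canonical transcript length for 99.7% of genes, for 43 of 43 members and for 77 of 78 partner genes. The length correction took off the running median fold change over 501 genes of neighbouring length, fitted on genes whose mean was at least the median. It was tested on simulated data in which changed genes were drawn without regard to length. That test cannot tell whether real changes tied to length were taken off as well. Alternatives were other thresholds, minimum means, adjustment over every gene, centring, a minimum change of 0.25 and this length correction. No protein or promoter sequence was used here. Computations used Python 3.11.15, pandas 2.3.3, numpy 2.4.6 and scipy 1.17.1.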

Additional observations from a re-analysis of the deposited data

How the results depend on the processing

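No paired analysis was possible because the deposited table holds 1 fitted comparison and no value per library; leaving out replicates was not possible for the same reason. The member counts, 3 positive and 19 negative calls, stayed within 1.5 times under an adjusted p of 0.01, a mean of at least 10 or 100, adjustment over every gene, centring, the length correction, and, chosen after seeing the data, without the Tango genes or with 6 genes of a matching older name. The positive count was 5 with an adjusted p under 0.1. Asked for a change beyond 0.25, the members gave 0 and 9 and the partner genes 1 and 13, against 8 and 31; this asks for more than a difference from 0, so fewer genes can pass. The count of all genes was then 1688 and 1233, against 3078 and 2512. In the separate setting of a mean of at least 100, with no minimum change, it was 1539 and 1532, where fewer genes were tested. There p was adjusted again over those genes, while with the deposited adjustment the counts were 1504 and 1505. Centring moved fold changes by 0.014 and turned Sec24CD to 0.012. The length correction turned 7 uncalled members: Sec16 to -0.31, Sec31 to -0.092, Spase25 to 0.075, Srp14 to 0.10, Tango11 to 0.0056, gammaCOP to -0.035 and zetaCOP to 0.25. It ended the calls of Sec22, Sec3 and Srp19 and added Sec24AB, Sec71 and alphaCOP.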
